A study of Mus musculus with 3 samples.

Results

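The cluster Malat+_Macrophage held 1043 of the 20266 kidney immune cells in the deposited count table, or 5.15% of them. Its members were the cells that carry this cluster name in the table, and the authors had given the name after clustering the cells on their expression. The cells came from untreated wild-type mice, described in the methods as C57BL/6J males of 10 weeks. After perfusion, the inner medulla (IM), outer medulla (OM) and cortex of each kidney were separated and digested, and the CD45+ cells were sorted and profiled with droplet single-cell RNA sequencing, in which each captured molecule counts as 1 unique molecular identifier (UMI). The table names 3 facilities, Aachen, Bonn and Hamburg, so that 9 combinations of facility and compartment, called libraries here, could be compared. The cluster had 42, 396 and 98 cells in the cortex, OM and IM of Aachen, 62, 20 and 49 in those of Bonn, and 98, 185 and 93 in those of Hamburg. Nothing in the labels says how many animals stand behind a library, so p-values over the 3 datasets measure only the spread between these samples.

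Malat1 is a long noncoding RNA that stays in the nucleus, where it is abundant in almost every cell type and gathers at nuclear speckles, the sites where splicing factors are stored. Neat1, its neighbour in the genome, builds paraspeckles, another kind of nuclear body. Resident macrophages of the kidney make the complement protein C1q from the genes C1qa, C1qb and C1qc, present antigen on MHC class II and degrade what they take up in lysosomes, and their cytoplasmic mRNAs for these tasks are among their most abundant transcripts. In the annotation of mm10, Malat1 is a single gene of 6983 bases on the minus strand of chromosome 19, from 5795690 to 5802672, and Neat1 lies on the same chromosome from 5824708 to 5845478.

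The cluster was set beside Macrophage_1, Macrophage_2 and Macrophage_3, which together held 5094 cells, within each library. Because all 4 clusters were formed from these same expression values, differences between them are given as descriptions without a test. The libraries held 621 to 3677 cells and 2122810 to 15267100 UMIs, and the summed counts of the cluster itself ran from 43468 UMIs (Aachen cortex) to 359318 UMIs (Aachen OM). Aachen cells were shallower than the others, with 744 to 1270 UMIs in the median cell of a library against 2802.02 to 3505 elsewhere, and 7959 of the 32886 genes were listed at 0 in every Aachen cell but not in the other datasets. Hamburg values were not whole numbers and were used as deposited, rounded to whole UMIs wherever cells with a UMI were counted. Within a dataset, pairs of libraries shared 29 cell barcodes in all, 4 of them with a cell of the cluster, while pairs from different datasets, which cannot share cells, had 196 in common.

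C1q was present in most cells of the cluster. The authors list C1qc among the markers of resident macrophages, so this describes the cluster and is no test of its name. At least 1 UMI of C1qa, C1qb or C1qc was present in 82.2% to 100% of the cluster's cells per library, and C1qa itself in 67.3% to 95.9%, at median depths of 590.5 to 2148.5 UMIs. T cells, which should lack C1q, showed a C1q UMI in 12.8% to 25.3% of the Aachen cells and in 2.41% to 5.93% of those from the other facilities, at median depths of 773 to 3524.68 UMIs. Cells thinned to 500 UMIs each gave 76.3% to 100% in the cluster, 0 to 19.0% in T cells and 98.3% to 100% in Macrophage_1 to 3. Thinning left out 164 of the 1043 cells, 162 of them from Aachen, along with 208 cells of Macrophage_1 to 3 and 150 T cells that had fewer UMIs. The lowest C1q shares of the cluster were those of Hamburg, 82.2% to 91.4% before thinning. At least 3 C1q UMIs were found in 63.3% to 69.9% of these Hamburg cells, against 99.0% to 99.8% of Macrophage_1 to 3. Across 3063 genes, the summed log2 profile of the cluster correlated with that of Macrophage_1 of the same library at r = 0.796 to 0.941, with that of Macrophage_2 at r = 0.735 to 0.946 and with that of Macrophage_3 at r = 0.749 to 0.944, a description in which the points share a library.

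The Malat1 part of the name held for the share of Malat1 among a cell's transcripts and not for its number of Malat1 molecules. In Aachen cortex the median cell of the cluster had 119.5 Malat1 UMIs and that of Macrophage_1 to 3 had 121. The corresponding medians were 103.5 and 87 in Aachen OM and 115 and 92 in Aachen IM. The Bonn medians were 41.5 and 42 (cortex), 42.5 and 51 (OM) and 41 and 45 (IM). The Hamburg medians, in the same order, were 48.3 and 43.4, 45.8 and 39.6, and 47.3 and 45.3. The cluster was thus above its neighbours in 5 libraries and below them in 4, with ratios between 0.833 and 1.25.

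The median cell of the cluster held fewer transcripts in total. It had 652 UMIs against 1468.5 in Aachen cortex, 590.5 against 784 in Aachen OM and 716.5 against 1010 in Aachen IM. In Bonn it had 2148.5 against 4162, 2013.5 against 4332.5 and 1646 against 4748 UMIs, in the same order of compartments. In Hamburg it had 1199.99 against 3725.65, 1064.22 against 3101.88 and 1343.73 against 3418.39. The cluster was the shallower one in all 9 libraries, at 0.322 to 0.753 times the depth of Macrophage_1 to 3, and it also lay below each of Macrophage_1, Macrophage_2 and Macrophage_3 in every library in which they could be compared.

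By medians per cell, transcripts fell into 3 kinds. Malat1 stayed near the level of the other macrophages, as given above. The mitochondrially encoded transcripts, which are made and kept inside mitochondria, had ratios of 0.461 to 1.22, with Aachen at 0.881 to 1.22, Bonn at 0.461 to 0.900 and Hamburg at 0.831 to 1.02. All other transcripts together had ratios of 0.308 to 0.709, lower in 9 of 9 libraries. Among these, the C1q genes stood at 0.115 to 0.643 and the MHC class II genes H2-Aa, H2-Ab1, H2-Eb1 and Cd74 at 0.130 to 0.523. Ribosomal protein transcripts, short mRNAs translated on cytoplasmic ribosomes, had the widest span, with 0.0627 to 0.0824 for Hamburg, 0.219 to 0.326 for Bonn and 0.405 to 0.810 for Aachen. Ratios of means placed Aachen higher, at 0.675 to 1.01 for all transcripts against 0.444 to 0.753 for the medians. For ribosomal proteins the Aachen ratios of means were 0.720, 1.15 and 1.12 in cortex, OM and IM, so that OM and IM were above 1 by means and below it by medians. The plot of UMIs per cell by kind of transcript shows this order.

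**Figure D1:**
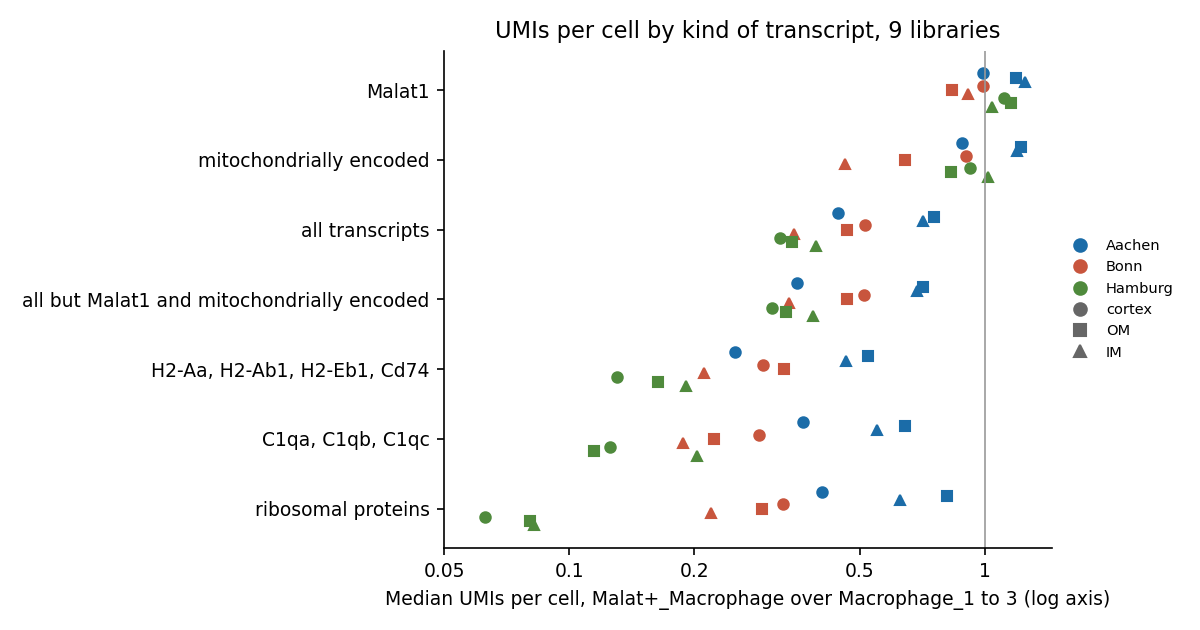
Median UMIs per cell in Malat+_Macrophage divided by that in Macrophage_1 to 3 of the same library (log axis), for 7 kinds of transcript. Each point is 1 of 9 libraries, with colour for the dataset and shape for the compartment; Malat1 lies between 0.833 and 1.25, while the C1q genes lie between 0.115 and 0.643 and ribosomal proteins between 0.0627 and 0.810.

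The median Malat1 share was higher in 9 of 9 libraries. It was 15.5% against 7.96% in Aachen cortex, 14.4% against 10.8% in Aachen OM and 12.3% against 9.09% in Aachen IM. The Bonn values were 1.64% against 0.936%, 2.09% against 1.25% and 2.09% against 0.971%. Those of Hamburg were 3.64% against 1.20%, 3.95% against 1.17% and 3.33% against 1.29%. Aachen cells of either kind had far larger Malat1 shares than Bonn or Hamburg cells, so that Macrophage_1 to 3 of Aachen exceeded the cluster in Bonn and Hamburg, and a Malat1 share can be read only within a dataset.

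The cells of the cluster were not a separate population on this scale. Between 70.0% and 95.7% of them lay above the median Malat1 share of Macrophage_1 to 3 in their library, and 26.5% to 70.8% lay above the 95th percentile, while 1.18% to 21.7% of Macrophage_1 to 3 cells exceeded the median of the cluster. The 3 Hamburg libraries had the fewest such cells of Macrophage_1 to 3, 1.18% to 3.91%. Within the cluster, the Malat1 share went down as depth went up, with Spearman correlations across the cells of a library from -0.64 to -0.39. In Macrophage_1 to 3 they were -0.33 to -0.12, and in both cases the total of a cell is the denominator of its share.

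**Figure D2:**
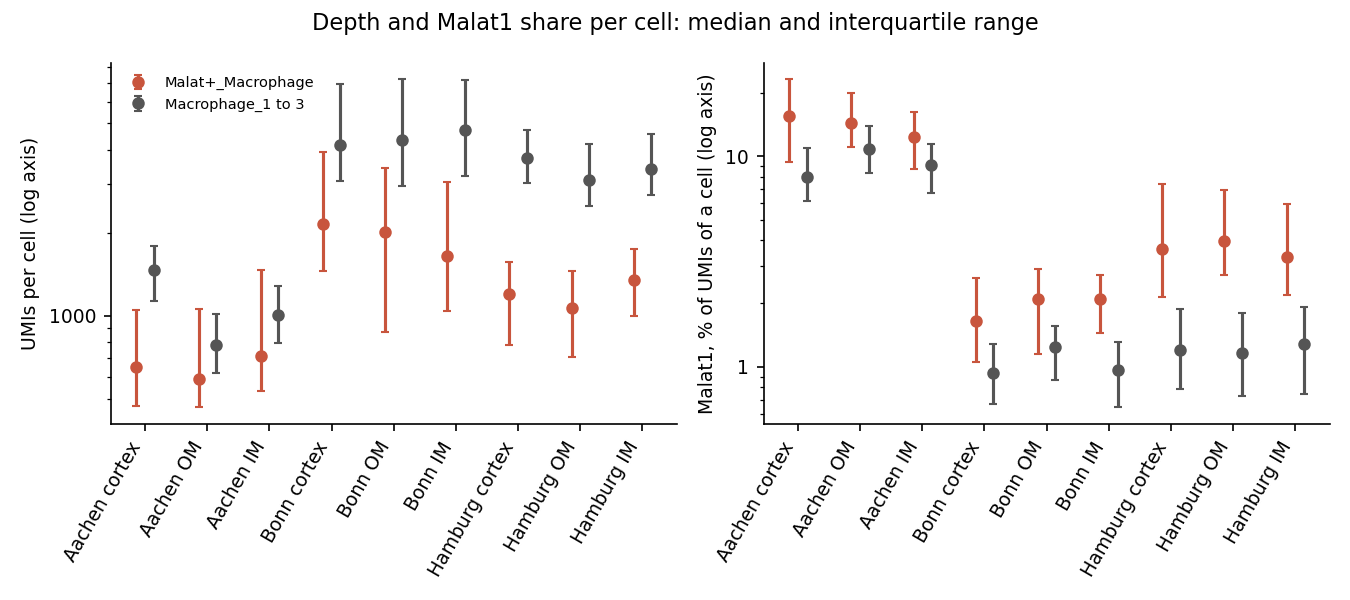
Left, UMIs per cell, and right, Malat1 as a percentage of the UMIs of a cell (both log axes), in the 9 libraries; points are medians over cells and bars are interquartile ranges, with Malat+_Macrophage in red and Macrophage_1 to 3 in grey. In every library the cluster has the lower depth, from 590.5 to 2148.5 UMIs, and the higher Malat1 share, from 1.64% to 15.5%.

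The difference in Malat1 share was also present within 1 window of depth per library, although depth was not fully matched by it. Against only those Macrophage_1 to 3 cells that lay within the interquartile range of the cluster's UMIs, the cluster's cells of that range had median shares of 18.1% against 11.9%, 16.1% against 11.2% and 13.3% against 9.50% for the Aachen libraries. The Bonn shares were 1.70% against 0.984%, 2.09% against 1.39% and 2.06% against 1.13%. Hamburg had only 6, 17 and 6 such cells of Macrophage_1 to 3, and the shares were 3.86% against 2.29%, 3.38% against 0.418% and 2.97% against 1.95%. Inside these windows the Macrophage_1 to 3 cells were still the deeper ones in all 9 libraries, with median depths of 731 to 2998 UMIs against 590.5 to 2148.5. C1q medians were 6.88 to 25.5 UMIs in the cluster against 12.6 to 68.0, lower in 9 of 9 libraries, and the part of the remaining depth gap was not tested.

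Thinning gave every cell 1 depth of 500 UMIs, and the Malat1 and C1q differences had the same direction. The cells of the cluster then held 10.8 to 79.6 Malat1 UMIs on average against 5.19 to 56.0, higher in each library, and 2.94 to 6.58 C1q UMIs against 7.34 to 10.7. They also held more different genes among those 500 UMIs in all 9 libraries, from 274 against 259 in Aachen OM to 359 against 328 in Bonn cortex. Without thinning the medians had the opposite order, 299.5 to 1188 genes against 358 to 1734.

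The mitochondrial share, which the authors capped at 20% per cell and which reached 9.12% at most in any deposited cell, was higher in the cluster in 9 of 9 libraries. Its medians were 2.46% against 1.48%, 1.35% against 1.05% and 1.48% against 1.24% in Aachen. The Bonn medians were 2.51% against 1.64%, 2.70% against 1.87% and 3.02% against 2.11%. Those of Hamburg were 1.93% against 0.658%, 2.03% against 0.749% and 1.91% against 0.717%. The median number of mitochondrial UMIs per cell was higher in 3 libraries (Aachen OM, Aachen IM and Hamburg IM) and lower in 6. In Aachen OM and IM the mean number was higher too, at 13.01 against 10.6 and 19.0 against 15.2 UMIs, while mean totals were 907 against 920 and 1134 against 1124 UMIs. Within the depth windows, where the other macrophages remained deeper, the share was higher in 9 of 9 libraries. The part of depth, cell integrity or free RNA in these differences was not tested.

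Transcripts of other cell types were present in the cluster. T cell markers (Cd3d, Cd3e, Cd3g, Trac, Trbc2 and Lck) made up 0.29 to 7.41 per 10000 UMIs against 0.07 to 2.19 in Macrophage_1 to 3, higher in 9 of 9 libraries, with the highest values in Aachen and in Bonn cortex. Endothelial and stromal markers stood at 0.15 to 4.56 against 0.02 to 0.40, also higher in 9 of 9, NK cell and monocyte markers were higher in 8 of 9, and cDC2 markers in 1 of 9. The 14 resident macrophage markers summed to 162 to 316 per 10000 UMIs against 240 to 438, lower in 9 of 9. At least 2 UMIs of T, B or NK cell markers were found in 201 cells of the cluster, or 19.3%. That share was 19.0% in Aachen, where it was 2.69% in Macrophage_1 to 3, but 42.0% against 52.8% in Bonn and 11.7% against 32.3% in Hamburg. A cut in UMIs finds more of the deeper cells, and the cluster was the shallower side. Per 10000 UMIs, T and NK cell markers were higher in 3 of 3 Hamburg libraries and B cell markers in 1. Igkc had 0 UMIs in these Aachen macrophages, so the lists are not alike between datasets. The 201 cells had a median of 19 C1q UMIs against 8 in the others, but their depth was not compared. Scrublet called 30 cells of the cluster (2.88%) and 99 of Macrophage_1 to 3 (1.94%) doublets. The part of the 201 cells and of the doublets in the results was not tested beyond leaving them out, as given beside the results they touch.

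Genes were compared on summed counts per library, as log2 differences of CPM, counts scaled to a common library total, between the cluster and Macrophage_1 to 3, over 3063 genes with a mean of at least 50 CPM in either. The counts depended on the scaling. With TMM, a scaling that centres the bulk of the genes, 28 genes (0.914%) were higher in the cluster in all 9 libraries and 754 (24.6%) were lower. Scaled by total counts the numbers were 232 (7.57%) and 130 (4.24%), and with both sums reduced to equal totals before TMM they were 81 (2.64%) and 206 (6.73%). Under all 3 scalings 13 genes (0.424%) were higher and 95 (3.1%) were lower. Counted as UMIs per cell, 1 gene (0.0326%), Kmt2d, was higher in all 9 libraries and 535 (17.5%) were lower. The median gene lay at -0.71 to -0.13 per library with TMM, so that list values below are given relative to it.

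Malat1 itself was not among the genes higher in every library with TMM. Its level was 111387 CPM in the cluster and 126544 in the other macrophages of Aachen cortex, 176223 and 171141 in Aachen OM, and 117008 and 129363 in Aachen IM. The Bonn levels were 11859 and 9702, 12135 and 11934, and 15036 and 10417 CPM. Those of Hamburg were 27474 and 16056, 28623 and 14654, and 26057 and 15581 CPM. The log2 difference ran from -0.18 to 0.97 with a median of 0.29 and was above 0 in 7 of 9 libraries, below it in Aachen cortex and Aachen IM. It was above 0 in 9 of 9 with total counts (0.27 to 1.69) and with equal totals (0.16 to 1.23). It was above 0 in 5 of 9 after thinning (-0.46 to 1.34), in 6 of 9 without the cells that held lymphocyte transcripts (-0.27 to 1.10) and in 6 of 9 against cells of the same depth window (-0.27 to 2.37). Relative to the median gene it was above 0 in 9 of 9 libraries with TMM, by 0.13 to 1.49. Among cells of at most 2% mitochondrial UMIs the median TMM difference was -0.090, above 0 in 4 of 9. Per UMI of C1q there were 1.20 to 11.3 UMIs of Malat1 in the cluster and 0.490 to 5.92 in the others, 1.87 to 7.62 times as many in each library.

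Neat1 differed most in Hamburg. Its TMM difference was 1.43 to 1.56 in the 3 Hamburg libraries, 0.19 to 0.57 in Bonn and -0.77 to 0.02 in Aachen. In Hamburg its level was 658 to 789 CPM in the cluster and 236 to 266 CPM in the other macrophages.

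The 15 genes with the largest median differences among the 28 were Gimap1 (1.90), Kmt2d (1.20), Ly6a (1.06), Lck (1.02), Apc (0.89), Ets1 (0.84), Ptpn22 (0.82), Slc16a6 (0.76), Kat6a (0.75), Usp19 (0.74), Itpkb (0.72), Pdcd4 (0.68), Mtmr3 (0.66), Tnrc6b (0.65) and Hipk1 (0.62), all log2 with TMM. Part of them are best known from lymphocytes. Lck, the kinase of the T cell receptor pathway, had 4.98 to 226 CPM in the cluster and 1.33 to 41.0 CPM in Macrophage_1 to 3. Its median difference was -0.13 without the cells that held lymphocyte transcripts. Lck is itself among the markers by which those cells were picked, so a fall was built in and does not show its source. Gimap1, a GTPase needed by lymphocytes, had 9.28 to 118 CPM against 0 to 34.8 CPM, and its difference where the others are at 0 depends on the prior count. Others are regulators of chromatin or signalling. Kmt2d, a histone H3K4 methyltransferase, had 39.9 to 128 CPM against 12.6 to 100 CPM. Itpkb, an inositol trisphosphate kinase, had 74.6 to 240 CPM against 41.2 to 70.0 CPM. Among the rest of the 15, Usp19, a deubiquitinase, had 47.9 to 100 CPM against 24.7 to 42.5 CPM. Of the 15, Gimap1, Ly6a, Apc, Ets1, Ptpn22, Itpkb and Mtmr3 were higher in all 9 libraries under each of the 3 scalings, while Ptpn22 and Mtmr3, with Kmt2d and Slc16a6, had medians below 0 when cells were thinned to 500 UMIs.

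The 15 genes with the lowest median differences included mRNAs of myeloid cells. Alox5ap, which presents arachidonic acid to 5-lipoxygenase for leukotriene synthesis, had 155 to 541 CPM in the cluster against 661 to 998 CPM, with a median difference of -1.78. Scimp, an adaptor of MHC class II signalling, had 65.3 to 254 against 284 to 668 CPM (-1.75), and Tmem176a, a membrane protein of antigen-presenting cells, had 275 to 836 against 966 to 1591 CPM (-1.75). Aif1, the actin-binding protein also called IBA1, had 36.3 to 413 against 362 to 1035 CPM (-1.78). Clec4b1 (-2.01) and Gng10 (-1.79) were, like these 4, lower in all 9 libraries under each of the 3 scalings. The remaining genes of the 15 were Gm10076 (-2.08), Stard3nl (-1.92), Tbcb (-1.91), H2-Oa (-1.89), Cnih4 (-1.82), Cstb (-1.73), Hmox2 (-1.71), Arhgdib (-1.63) and F11r (-1.61).

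The genes that carry out macrophage functions were lower as groups. C1qa had 1720 to 5433 CPM in the cluster against 5528 to 11071 CPM, and its TMM differences lay between -1.77 and -0.90. C1qb lay between -2.27 and -0.98 and C1qc between -1.77 and -0.78, so all 3 chains were lower in 9 of 9 libraries. Of the 13 resident macrophage markers measured, 9 were lower in all libraries and 0 were higher, beside 24.6% lower among all genes. Csf1r, the receptor for the macrophage growth factors, was an exception, with differences from -0.98 to 0.51 and the positive ones all in Hamburg. Of 7 MHC class II genes, 6 were lower in all libraries under each scaling. H2-DMa and H2-DMb1, which load peptides, had medians of -1.36 and -1.31, and Ciita, the transcriptional activator of the class II genes, was the exception with a median of 0.25 and higher values in 7 of 9 libraries. Of 18 genes for lysosomal proteins and cathepsins, 14 were lower in all libraries with TMM and 7 with total counts, led by Npc2 (-1.56), a cholesterol carrier, and Cd63 (-1.36). Relative to the median gene, the list medians were -1.25 to -0.48 for the resident markers, -1.08 to -0.64 for MHC class II and -0.74 to -0.26 for the lysosomal list, below 0 in 9 of 9 libraries and also against cells of the same depth window.

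Signalling genes and transcription factors were mixed. Of 15 chemokine and cytokine genes, 7 were lower in all libraries with TMM and 2 with total counts, beside 24.6% and 4.24% of all genes, with Ccl12 (-2.18) and Cxcl10 (-1.72) lowest and Tnfaip3, an inhibitor of NF-kappaB, highest at 0.78. Of 12 macrophage transcription factors, 4 were lower in all libraries and 1 higher with TMM, near the 24.6% and 0.914% of all genes, and 0 were lower with total counts. Spi1, the master regulator PU.1, had a median of -0.88 and Cebpb of -0.93, whereas Nfkb1, a subunit of NF-kappaB, had 0.57 and was higher in 9 of 9 libraries with TMM and in 8 of 9 with equal totals. Relative to the median gene this list was above 0 in 6 of 9 libraries. Interferon response genes were above it in 3 of 9, with Bst2 (-1.43) and Ifi27l2a (-1.31) lower in all libraries. Immediate early genes, which are induced during tissue digestion, were above the median gene in 2 of 9 libraries and heat shock genes in 3 of 9. Within these lists Dusp1 (-1.13) and Hspe1 (-1.05) were lower in all libraries while Fosb (0.42) was higher in 8 of 9. Of 7 scavenging genes, 1, Igf1 (-1.01), was lower in all libraries, and the list was above the median gene in 7 of 9.

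Lists of nuclear functions did not all lie on 1 side of the median gene. Macrophage transcription factors and immediate early genes were above it in 6 and 2 of 9 libraries, and the chromatin and splicing lists in all 9. The 18 chromatin regulators had list medians 0.16 to 1.39 above it and the 21 splicing and speckle factors 0.13 to 0.57 above it, in 9 of 9 libraries each. Only 1 member of each list, Kmt2d and Luc7l2, was higher in all libraries with TMM, and 8 and 9 members were with total counts, beside 7.57% of all genes. Kmt2c, another H3K4 methyltransferase, had a median of 0.71, whereas Nipbl, the cohesin loader, had -0.26. The 13 mitochondrially encoded mRNAs were 0.11 to 1.31 above the median gene, with Hamburg at 0.92 to 1.31. None of the 13 was higher in all libraries with TMM, and 8 were with total counts.

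Their nuclear-encoded partners in the respiratory chain were, as a list, below the median gene in 8 of 9 libraries. Of 20 such genes, 13 were lower in all libraries with TMM, 1 with total counts and 3 with equal totals, beside 24.6%, 4.24% and 6.73% of all genes, with Ndufc1 (-1.34) and Ndufb8 (-1.18), both subunits of complex I, among them. Their list median was -1.66 to -1.38 relative to the median gene in Hamburg and -0.34 to 0.04 in Aachen and Bonn. Ribosomal protein genes, as a list, were likewise below the median gene in 8 of 9 libraries. Of 80, 52 were lower in all libraries with TMM and 1 with total counts, and the list stood at -2.06 to -1.53 in Hamburg, -0.73 to -0.25 in Bonn and -0.02 to 0.07 in Aachen. In the plot of gene lists these 2 groups are where the datasets separate most.

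**Figure D3:**
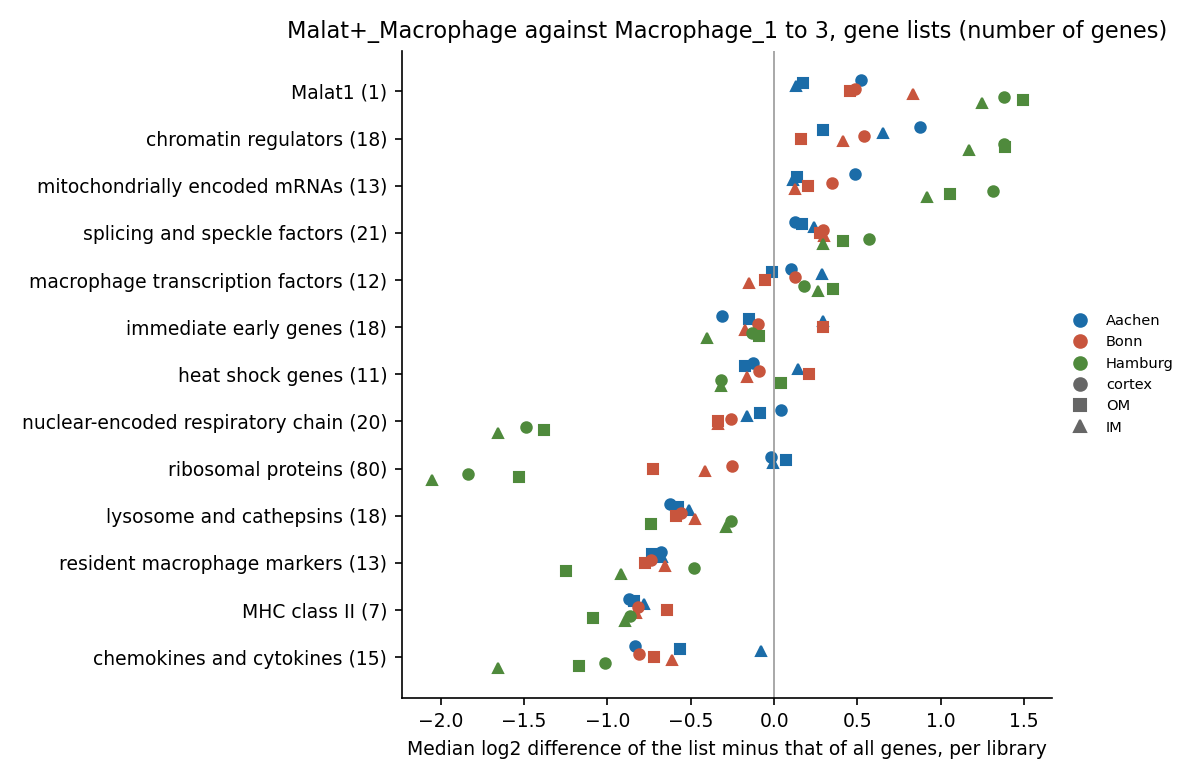
Median log2 difference (TMM) of each gene list between Malat+_Macrophage and Macrophage_1 to 3, minus the median of all 3063 genes in the same library; each point is 1 library, the number of genes is in brackets, and Malat1 is shown alone. Chromatin, mitochondrially encoded and splicing lists lie above 0 in all 9 libraries, the lysosome, resident macrophage, MHC class II and chemokine lists below 0 in all 9, and ribosomal proteins reach -2.06 in Hamburg.

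Leaving out the macrophages with lymphocyte transcripts kept the sides of these lists. Chromatin regulators then had list medians 0.03 to 1.35 above the median gene, splicing factors 0.12 to 0.60 and mitochondrially encoded mRNAs 0.31 to 1.31, while MHC class II lay at -1.21 to -0.48. Against cells of the same depth window the splicing list was above 0 in 9 of 9 libraries (0.06 to 0.76), the chromatin list in 8 of 9 (-0.12 to 1.34), the mitochondrially encoded list in 8 of 9 (-0.45 to 0.79) and Malat1 in 7 of 9 (-0.11 to 1.91). The Hamburg values of this window rest on only 6, 17 and 6 cells of Macrophage_1 to 3. The T cell markers were above the median gene in 9 of 9 libraries by 0.31 to 3.40. They lay at -0.36 to 2.05 without the cells that held lymphocyte transcripts, which were picked partly by these same markers.

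The differences were also ordered by the length of the gene. Gene span, the distance from the start to the end of the gene with its introns, was known for 3029 of the 3063 genes (98.9%), and 2936 of them were neither ribosomal protein nor mitochondrially encoded genes. These were cut into quintiles, the shortest of at most 6570 bases and the longest of at least 65609 bases. The median difference of the longest quintile exceeded that of the shortest in 9 of 9 libraries, by 0.25 to 1.82 on the log2 scale. Hamburg went from -1.38 in the shortest quintile to 0.44 in the longest, Bonn from -0.51 to 0.04 and Aachen from -0.38 to -0.06, each a median over genes of their median over 3 libraries. The gap was 0.19 to 1.504 against cells of the same depth window and 0.35 to 1.73 without the cells that held lymphocyte transcripts, positive in 9 of 9 in both. In Hamburg the window held only 6, 17 and 6 cells of Macrophage_1 to 3. Among the 618 genes of at least 200 CPM the gap was -0.04 to 1.57, positive in 8 of 9. With only cells of at most 2% mitochondrial UMIs it was 0.06 to 1.81, positive in 9 of 9. For the 618 genes in these cells it was -0.05 to 1.56, positive in 7 of 9. Quintiles by transcript length instead of gene span gave a similar order with TMM. The shortest transcripts had medians of -1.09 (Hamburg), -0.43 (Bonn) and -0.37 (Aachen). For the longest transcripts these medians were 0.30, -0.001 and -0.12. Whether span or transcript length underlies the order was not tested. Long genes have more intronic sequence, which the deposited gene counts do not separate from exons, so unspliced RNA could not be measured here.

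**Figure D4:**
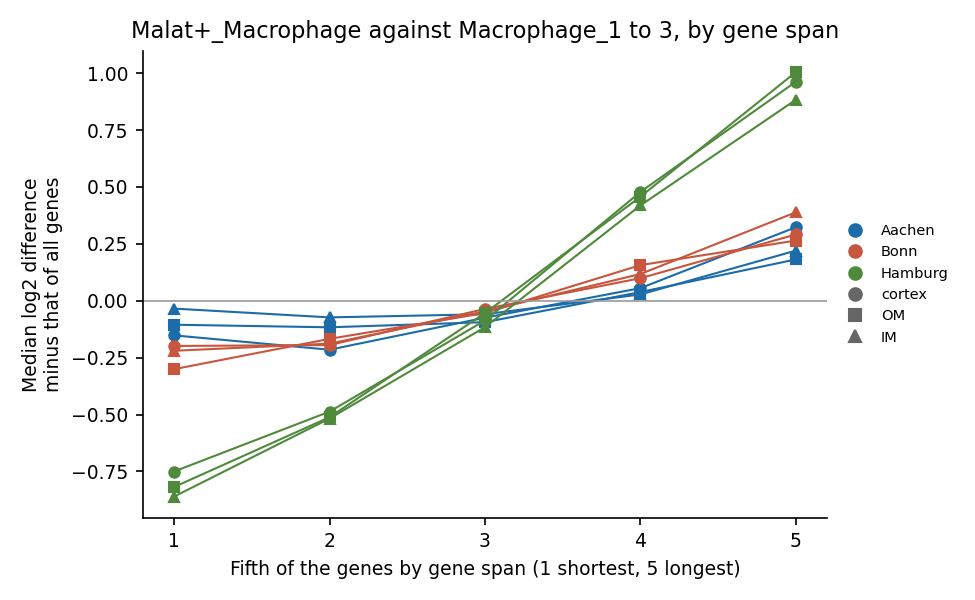
Median log2 difference (TMM) between Malat+_Macrophage and Macrophage_1 to 3, minus that of all genes in the library, in quintiles of 2936 genes by gene span from shortest (1) to longest (5). Each line is 1 library; all 9 lines end higher than they start, and the difference between the longest and the shortest quintile is largest in Hamburg, with a median of 1.74, against 0.57 in Bonn and 0.29 in Aachen.

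The table names a T cell cluster in the same way, and its Malat1 share was higher there too. Malat+_T_cell (430 cells) had at least 20 cells in 5 libraries, where its median Malat1 share was 2.29% to 12.9% against 0.684% to 6.58% in T_cell_1 to T_cell_4. Its Malat1 UMIs per cell were 1.17 to 1.84 times those of the other T cells, its transcripts other than Malat1 and mitochondrially encoded ones 0.259 to 0.894 times and its ribosomal protein UMIs 0.0333 to 0.544 times. Malat1 UMIs were higher in all 5 libraries. For the macrophage cluster in these libraries the Malat1 ratios of medians were 1.19 (Aachen OM), 0.988 (Bonn cortex) and 1.11, 1.15 and 1.04 (Hamburg). Its ratios of means were 1.22, 0.988 and 0.946, 1.09 and 1.10. In Aachen OM the 20 cells of Malat+_T_cell were the deeper ones, with a median of 887.5 UMIs against 773. Mitochondrial UMIs of Malat+_T_cell were there 1.06 times those of the other T cells. In the other 4 libraries the median depth of Malat+_T_cell was 906.955 to 1582 UMIs against 3301 to 3524.68. B_cell_3 (247 cells), whose name does not mention Malat1, was compared in the 3 Hamburg libraries. There its Malat1 share was 3.33% to 3.68% against 0.837% to 0.882% in the other B cells, with Malat1 UMIs at 1.19 to 1.31, other transcripts at 0.275 to 0.298 and ribosomal protein UMIs at 0.0413 to 0.0570 times theirs. The longest quintile of genes exceeded the shortest by 0.48 to 2.03 in Malat+_T_cell (5 of 5 libraries) and by 1.75 to 1.95 in B_cell_3 (3 of 3).

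Compartments were then compared within the cluster, which asks whether these cells carry the positional differences that the study looked for in kidney macrophages. Compartment labels come from dissection and were not used to form the cluster, so this comparison could be tested. With edgeR's quasi-likelihood test on summed counts and the dataset as a block, 2 of 3407 genes (0.0587%) fell in the medulla (mean of OM and IM) against cortex and 0 rose, with 182 at an unadjusted p under 0.05. By DESeq2 the numbers were 3 and 0. Between OM and cortex 0 genes (0%) passed, with 171 at an unadjusted p under 0.05 and 0 by DESeq2. Between IM and cortex 0 genes (0%) passed, with 144 at an unadjusted p under 0.05 and 1 by DESeq2, and between OM and IM 0 genes (0%), with 111 and 1.

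Both genes that fell are made by cytotoxic lymphocytes. Xcl1, the chemokine lymphotactin, had 12, 31 and 10 UMIs in the cortex, OM and IM of Aachen, 14, 0 and 0 in those of Bonn, and 23, 4 and 2 in those of Hamburg. In CPM the cortex had 240, 51.1 and 125 and the medullary libraries 0 to 114, so that each dataset's cortex was its highest library. The fold change was -2.36 on the log2 scale (SE 0.43, edgeR adjusted p = 0.0451). Ctsw, the protease cathepsin W, had 12, 19 and 14 UMIs in the Aachen libraries, 28, 0 and 1 in the Bonn ones and 8, 1 and 1 in the Hamburg ones, with a fold change of -2.32 (SE 0.45, edgeR adjusted p = 0.0467). Their UMIs lay in 42 and 44 cells. Without the macrophages that held lymphocyte transcripts 0 of 1543 genes passed the edgeR test, with 86 at an unadjusted p under 0.05. Those macrophages were picked by lymphocyte markers, and fewer genes were left to test. The result therefore does not show the source of the Xcl1 and Ctsw UMIs. Without Bonn cortex, Bonn OM, Hamburg cortex or Hamburg OM, each left out alone, 0 genes passed, while without Aachen cortex or Hamburg IM 9 did, without Bonn IM 6 and without Aachen OM 4.

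No member of the gene lists passed the test between medulla and cortex in the cluster. Of the 12 resident macrophage markers tested, 0 were at an unadjusted p under 0.05, as were 0 of 7 MHC class II genes, 0 of 13 mitochondrially encoded mRNAs, 0 of 18 chromatin regulators and 0 of 21 splicing factors. The counts were 3 of 18 for the lysosomal list and 4 of 10 for the interferon list, beside 182 of 3407 over all genes. Malat1 did not pass either.

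In Macrophage_1 to 3, whose sums held 640528 to 3677640 UMIs, the same test called 142 of 8308 genes (1.71%), of which 68 rose and 74 fell in the medulla. The mix of the 3 clusters differed between compartments, as Macrophage_3 had 873 cells in Aachen OM and fewer than 20 in Aachen cortex, and went from 38 cells in Bonn cortex to 277 in Bonn IM. A change within cells and a change of this mix cannot be told apart in these sums, nor in the interaction that uses them. The libraries are shared between the 2 comparisons, so values are set side by side only. Of the 68 that rose, 40 could be tested in the cluster, with a median fold change of 0.96 in Macrophage_1 to 3 and 0.71 in the cluster (interquartile range 0.40 to 0.90). Of the 74 that fell, 42 could be tested, with medians of -1.11 and -0.65 (-0.96 to -0.32). Over all 3389 genes tested in both the medians were -0.01 and 0.05. The standard errors of those called genes had medians of 0.19 and 0.23 in Macrophage_1 to 3 and 0.37 and 0.41 in the cluster.

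Single genes of that set were chosen after their values were seen. Lyz2, lysozyme, rose by 1.48 in Macrophage_1 to 3 (edgeR adjusted p = 0.0122), and in the cluster its value was 1.29 (SE 0.42, edgeR adjusted p = 0.766). In the cluster it had 1962, 11412 and 2731 CPM in the cortex, OM and IM of Aachen, 1571, 1391 and 5198 in those of Bonn and 833, 1395 and 1914 in those of Hamburg, so that Bonn OM was below its cortex. Stab1, a scavenger receptor, had fold changes of 1.40 and 0.94, Itgax, the integrin CD11c, of -1.47 and -0.98, and Pilra, an inhibitory receptor, of -1.69 and -1.74. Gas6, a bridge to phosphatidylserine on dying cells, had 2.34 and 1.37.

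The difference between the 2 medulla effects was tested itself, within libraries, by an interaction term in edgeR. It called 6 of 8563 genes (0.0701%), with 316 at an unadjusted p under 0.05 and 0 by DESeq2. Immunoglobulin light chain genes made up 4 of the 6, namely Igkv6-23, Igkc, Igkv12-46 and Igkv9-120, and the others were Ccl5 and Igfbp5. Most UMIs of Igkv6-23 (99.5%) and Igkc (91.6%) in the cluster came from 1 Bonn IM cell of 33045 UMIs, and 94.5% of those of Igkv9-120 came from 1 Bonn cortex cell. Igfbp5, a secreted binding protein of insulin-like growth factors, was the only one with the same direction in every dataset, at -6.02 (SE 1.12, edgeR adjusted p = 0.000167). It rose by 5.88 in Macrophage_1 to 3 (edgeR adjusted p = 0.00603), where it had 0 or 1 UMI in each cortex. In the cluster its value was -0.31 (SE 0.66, edgeR adjusted p = 0.996). Most Igfbp5 UMIs of Macrophage_1 to 3 lay in Bonn IM (146), followed by Aachen OM (23) and Bonn OM (7). Aachen IM, Hamburg OM and Hamburg IM had 1 UMI each. The 54 Igfbp5 UMIs of the cluster lay in 9 cells, 46.3% of them in 1 cell of Bonn cortex. None of the 54 came from Hamburg, so the Hamburg direction rested on 1 UMI per medullary library of Macrophage_1 to 3. Without the cells that held lymphocyte transcripts the test called 1 gene, Igfbp5, without the Bonn cortex library it called 1, which was not Igfbp5, without Hamburg OM it called 2, without the Hamburg dataset 3 and without the Bonn IM library 0.

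The share of the cluster was highest in Hamburg among macrophages and highest in OM among all cells. Among the cells of the 5 macrophage clusters, including Isg+_Macrophage, it made up 7.81%, 16.9% and 14.1% in the cortex, OM and IM of Aachen, 10.3%, 10.6% and 7.09% in those of Bonn and 29.7%, 27.7% and 26.4% in those of Hamburg. The means were 15.9% ± 11.98 in cortex, 18.4% ± 8.63 in OM and 15.9% ± 9.78 in IM (SD, n = 3 datasets). Medulla minus cortex was 7.69 percentage points for Aachen, -1.45 for Bonn and -2.64 for Hamburg, 1.20 on average (p = 0.667, a two-sided exact permutation test of compartments inside each dataset, where 0.037 is the smallest p that 27 arrangements can give). Without the cells that held lymphocyte transcripts the average was -0.73 points (exact permutation p = 0.704).

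Among all sorted cells the cluster made up 3.01%, 10.8% and 4.72% of the Aachen libraries, 1.69%, 3.22% and 2.62% of the Bonn ones and 4.002%, 7.54% and 4.52% of the Hamburg ones. The medulla exceeded the cortex in each dataset, by 4.74, 1.23 and 2.03 points, 2.66 on average, and OM was the highest compartment in all 3 (exact permutation test, p = 0.148). Neither difference passed the test. The 5 macrophage clusters together were also a larger part of OM than of cortex in each dataset. They held 2348 of 3677 cells against 538 of 1395 in Aachen and 188 of 621 against 601 of 3664 in Bonn. In Hamburg they held 668 of 2455 against 330 of 2449. Exact binomial 95% intervals, which cover counting error only, are drawn in the plot of shares, and that of Bonn OM among macrophages, the library with the fewest cells, ran from 6.62% to 15.95%. Depth moved with the library as well, since the median macrophage had 763.5 UMIs in Aachen OM and 1427 in Aachen cortex, and the cluster itself was the shallow one of each library. The part of depth in the shares was not tested beyond leaving out cells under 500 UMIs, which gave 0.87 and 2.43 points.

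**Figure D5:**
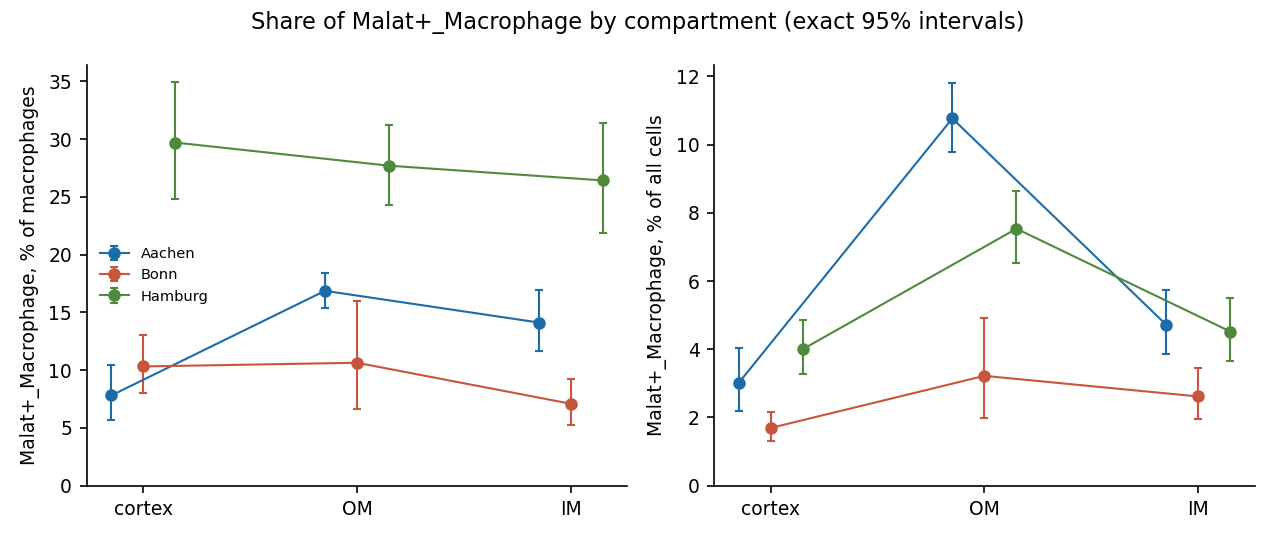
Share of Malat+_Macrophage among the cells of 5 macrophage clusters (left) and among all cells (right), in percent, by compartment; points are libraries joined within a dataset and bars are exact binomial 95% intervals, which cover counting error only. Hamburg lies between 26.4% and 29.7% of macrophages and the other datasets between 7.09% and 16.9%; among all cells OM is the highest compartment in each dataset.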

How the data were processed

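Cell Ranger (mm10) and Seurat were used by the authors, per the labels and methods, to count UMIs, keep cells within limits of gene number and with at most 20% mitochondrial UMIs (deposited cells had 201 to 3999 genes), integrate the datasets and name clusters. The deposited values are estimated counts, whole numbers in Aachen and Bonn and fractional in Hamburg, for which no reason is given in the sources used here. Compartment, facility and cluster were taken from the same table, and its 3 compartments match the 3 labelled samples.

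The cluster, the gene lists and the tests were chosen with earlier results of these data known. Counts were summed per library and cluster where at least 20 cells were present, rounded to whole numbers, and tested in R 4.3.3 with edgeR 4.0.16 (TMM, filterByExpr, quasi-likelihood test, Benjamini-Hochberg over all genes tested, threshold 0.05), with contrasts for medulla against cortex and the dataset as a block. DESeq2 1.42.0 was the alternative. The interaction was fitted within libraries. Differences from Macrophage_1 to 3 are log2 CPM with a prior count of 2. Sums for the depth window were also used where fewer than 20 cells were left. The text names the 15 largest and 15 smallest median differences among genes of at least 50 CPM with 1 sign in all libraries, up to 10 called genes each way that changed alike in every dataset, and 2 to 4 members of a list (its extremes, C1qa and others given in a clause being additions made after values were seen). Reads of overlapping or near-identical genes (immunoglobulin and MHC genes, Gm10076) may be shared. Gene spans are those of GENCODE for mm10.

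The dataset as a block followed from the facility column: deviations of same-dataset libraries from their compartment means correlated at 0.50 to 0.85 (9 pairs) and those of different datasets at -0.75 to 0.21 (18 pairs). Deviations from a compartment mean cancel out over the datasets, which pulls the values between datasets down. That range is therefore no separate ground for the block. Doublets were called with Scrublet (scanpy 1.11.5, Python 3.11.15), 321 of 20266 cells (1.58%), and were left out only as an alternative. The doublet treatment of the authors is not given in the sources used here. Each statistic was tested on simulated data. Shares were compared by exact permutation of compartments within datasets (scipy 1.17.1). Libraries had 621 to 3677 cells, and the cluster sums of 43468 to 359318 UMIs limit precision for rare genes. Numbers of UMIs cover counting error only.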

Additional observations from a re-analysis of the deposited data

Results flagged for a closer look

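For 6 genes the medulla effect of the cluster differed from that of Macrophage_1 to 3 by the interaction test in edgeR (log2, adjusted p under the threshold). The differences were 4.44 for Igkv6-23, 3.58 for Igkc, 2.93 for Igkv12-46, -14.31 for Igkv9-120, -6.02 for Igfbp5 and -1.51 for Ccl5. Igkv12-46 had 71 of its 145 UMIs in the cluster in 1 Bonn IM cell, and Ccl5, a chemokine of cytotoxic lymphocytes and other cells, had 0 UMIs in Bonn OM and Bonn IM and 369 in Bonn cortex. Without the cells that held lymphocyte transcripts the Ccl5 difference was 0.13. Those cells were picked by lymphocyte markers, so this does not show the source of Ccl5. DESeq2 called none of the 6.

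The share of the cluster among macrophages moved in opposite ways between datasets, with medulla minus cortex at 7.69 points in Aachen and -2.64 in Hamburg. The difference between these datasets was not tested.

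Ifngr1, a chain of the interferon gamma receptor, was the 1 gene under all 3 scalings that was higher in every Hamburg library and lower in every other, with a median log2 difference from Macrophage_1 to 3 of 0.21 in Hamburg, -0.38 in Bonn and -0.82 in Aachen. This difference was not tested.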

How the results depend on the processing

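Counts of genes called in the cluster between medulla and cortex (2) were 16 without a filter on low counts, 0 without the dataset block (no pairing of libraries), 0 after thinning to 500 UMIs and 0 without cells that held lymphocyte transcripts. Between OM and cortex (0) they were 10 without a filter, 1 with RLE size factors and 1 without doublets, between IM and cortex (0) 25 without a filter, 1 with DESeq2 and 1 without doublets, and between OM and IM (0) 21 without a filter and 1 with DESeq2. For the interaction (6) they were 0 with DESeq2, 2 without the dataset block, 1 without doublets and 1 without cells that held lymphocyte transcripts. Leaving out each dataset or library in turn, the latter chosen after seeing the data, gave 0 to 9 genes for medulla, 0 to 7 for OM, 0 to 11 for IM, 0 to 8 for OM against IM and 0 to 9 for the interaction. Xcl1 passed in 11 of the 18 alternative settings that gave it an adjusted p, and Ctsw in 10 of 18. These include the maximum of 10% mitochondrial UMIs and the minimum of 10 cells, which changed nothing. Igkv6-23 turned to -0.30 without doublets, -0.49 without cells that held lymphocyte transcripts, -0.27 without Bonn, -0.29 without Bonn cortex and -0.31 without Bonn IM, Igkc to -0.43 without Bonn IM (over all left-out libraries -0.31 to 18.93 and -0.43 to 4.43) and Ccl5 to 0.13 without cells that held lymphocyte transcripts. The share among macrophages was -0.73 points without those cells and -2.05 to 3.12 when a dataset was left out (1.63 to 3.38 among all cells). Genes higher and lower than in Macrophage_1 to 3 in all libraries (28 and 754) numbered 232 and 130 with total counts, 274 and 112 without Malat1 and mitochondrially encoded genes in the total, 81 and 206 with equal totals, 62 and 460 with equal weight of the 3 clusters and 58 and 28 against cells of the same depth window. The number higher was 1 after thinning, 12 without cells that held lymphocyte transcripts and 2 among cells of at most 2% mitochondrial UMIs. Leaving out a dataset gave 49 to 144 and 856 to 1112. The median Malat1 difference was 0.03 to 0.64 when a dataset was left out and -0.090 at no more than 2% mitochondrial UMIs. The heat shock list turned to 0.0041 without Malat1 and mitochondrially encoded genes, Lck to -0.13 without cells that held lymphocyte transcripts, and Kmt2d to -0.051, Ptpn22 to -0.10, Slc16a6 to -0.18 and Mtmr3 to -0.23 after thinning. The causes were not tested. The equal totals, depth window, 2% and lymphocyte settings were chosen after seeing the data. A maximum of 10% mitochondrial UMIs and a minimum of 10 cells removed nothing.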
